A study of Mus musculus with 6 samples.

Results

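The genes of mitochondrial DNA replication and transcription are a set of 10 nuclear genes, Polg, Polg2, Twnk, Ssbp1, Polrmt, Tfb1m, Tfb2m, Tefm, Lrpprc and Mgme1, chosen by name. Every array probe whose accession belonged to one of them was kept, which gave 17 of the 56605 probes on the array, for 10 of the 23462 genes that could be named. The study profiled BV2 cells, an immortalized mouse microglial line, on 6 single-channel Agilent arrays after stimulation with LPS, a bacterial membrane component that provokes inflammation. Of these, 3 arrays were labelled as without and 3 as with overexpression of PGC-1α (gene Ppargc1a), and both groups had received LPS. According to the methods, PGC-1α was delivered by a lentivirus and the cells were selected with puromycin, and a control lentivirus served as the comparison. The labels do not say whether the 3 samples of a group were separate cultures, so the p-values measure the spread between these samples, which may be technical.

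The mitochondrial genome is a small circular DNA that encodes subunits of the respiratory chain together with the ribosomal and transfer RNAs needed to make them. It is copied by a dedicated replisome of DNA polymerase gamma, the helicase Twinkle and a single-stranded DNA-binding protein, and transcribed by a single-subunit RNA polymerase with its own initiation and elongation factors, all encoded in the nucleus. PGC-1α is a transcriptional coactivator known for raising the expression of nuclear genes for mitochondria, through partners such as NRF1, GABP and the estrogen-related receptors.

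Tefm and Twnk were the members that changed most, and both were lower with PGC-1α. Tefm, the mitochondrial transcription elongation factor, was 4.43-fold lower and Twnk, the replicative helicase, 2.24-fold lower. Smaller decreases passed the threshold for Polrmt, Mgme1 and 1 of 2 probes of Tfb2m, whereas 1 of 2 probes of Ssbp1 was higher. All probes of the catalytic polymerase subunit Polg, of its accessory subunit Polg2, of Tfb1m and of Lrpprc missed the threshold. Values are log2 intensities relative to the 75th percentile of the same array, log2 fold changes are with minus without PGC-1α, and the threshold was a Benjamini-Hochberg adjusted p of 0.05 in limma over all 39297 probes tested. Testing required signal well above background throughout at least 1 group, and each of the 17 probes met this on all 6 arrays.

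The arrays differed over most of the transcriptome, which sets the background for these counts. Of all tested probes, 53.5% passed the threshold, 35.2% as higher and 18.2% as lower with PGC-1α. Among the 17 probes, 6 passed, 1 as higher and 5 as lower, so the share called lower was 29.4%. A decrease of at least 2-fold that passed the threshold was found for 2 of the 17 probes, against 8.34% of all probes. The median log2 fold change was -0.09 over the 17 probes and 0.25 over all probes, and 16 of the 17 lay below the latter. After quantile normalization, a scaling that gives every array the same distribution, these medians were -0.23 and 0.05, 43.1% of all probes passed, 20.4% as lower, and 4 of the 17 did, all as lower. The scaling moved probes unequally, from 0.45 to -0.05 for the brighter Ssbp1 probe and from -0.38 to -0.37 for Polrmt, and left Tefm at -2.15. Values relative to the median of all probes were -0.34 and -0.28 for the median of the 17 probes under the respective scalings.

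**Figure D1:**
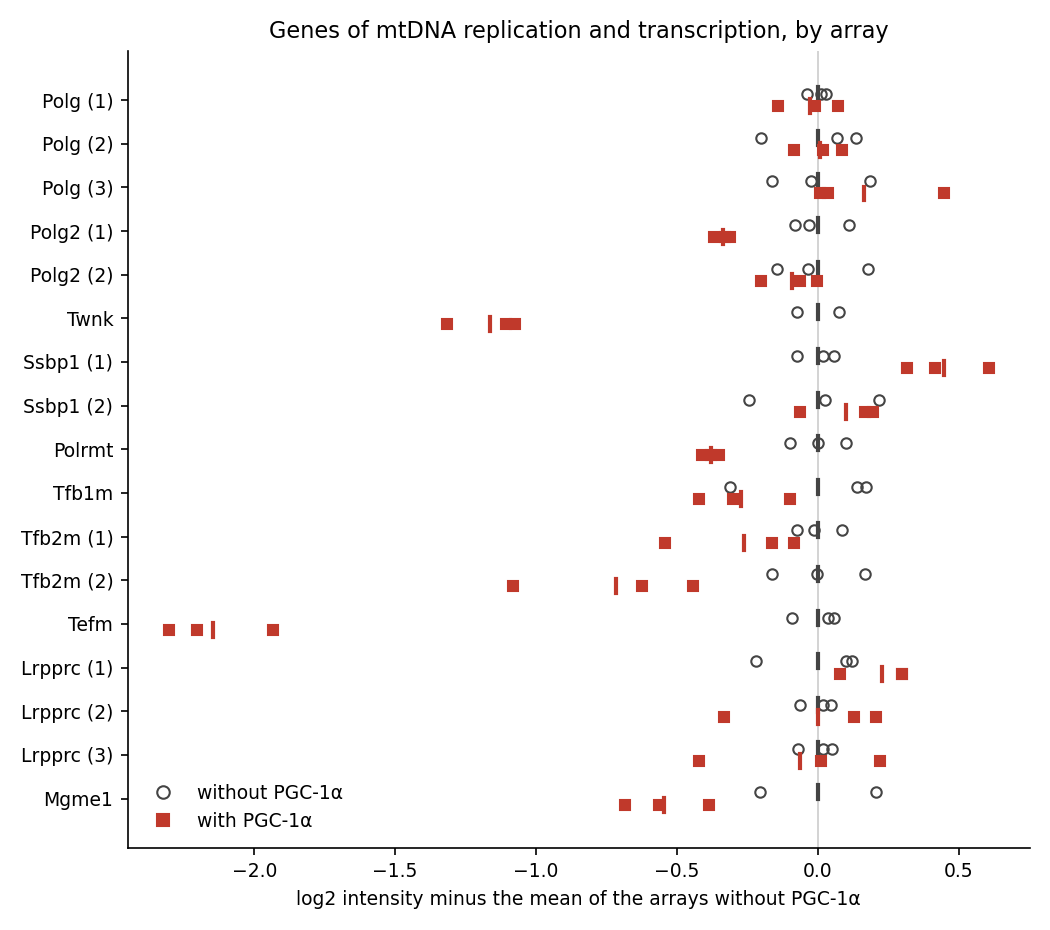
Log2 intensity of the 17 probes on each array, minus the mean of the arrays without PGC-1α for the same probe (x axis). Open circles are arrays without and filled squares arrays with PGC-1α, short vertical bars are group means, and numbers in brackets tell the probes of a gene apart, from brighter to dimmer. The arrays with PGC-1α lie far to the left for Tefm and Twnk, and the groups overlap for 9 of the 17 probes. For Twnk and Mgme1, 1 array without PGC-1α has no point because its spot was marked as an outlier.

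Ppargc1a itself gave no firm check of the labels. Its brighter probe read -6.21, -6.37 and -7.71 on the arrays without PGC-1α and -5.70, -5.28 and -5.90 on those with it, and was well above background on 4 of the 6 arrays. Without the background filter its log2 fold change was 1.14 (SE 0.41, limma adjusted p = 0.069), and that of the other probe was 0.26 (SE 0.29, adjusted p = 0.49). The 75th percentile of the intensity ran from 1617 to 1893 on the arrays without PGC-1α and from 856 to 1268 on those with it. The microglial identity was checked on 12 marker genes, of which 11 had a tested probe, while both probes of Cx3cr1 were well above background on no array. Marker lists of other cell types also held called probes, to be read beside the shares over all tested probes, 35.2% called higher and 18.2% lower. For fibroblast markers, 7 of 9 tested probes rose and 1 fell (6 and 2 after quantile normalization). Their summed intensity, in units of the 75th percentile of the array, was 20.9 to 22.7 without and 36.1 to 44.2 with PGC-1α. The brightest of these probes, for Col1a1, had a log2 fold change of 0.77, and of 0.22 after quantile normalization (limma adjusted p = 0.14). The summed intensity of the microglial list was at most 104.0 without and 138.0 to 165.0 with PGC-1α, with 6 of 16 probes called higher (after quantile normalization, 1 higher and 1 lower). For neuron markers, 3 of 6 probes were higher and 1 lower (sums of 24.3 to 29.8 and 36.6 to 49.9). Syt1 was above background on no array. The brightest neuron probe, Snap25, averaged 4.65 without and 5.35 with PGC-1α and dominated the sums. Its log2 fold change of 0.71 was 0.08 after quantile normalization (limma adjusted p = 0.6). The Map2 and Rbfox3 probes called higher were dim, averaging -6.31 and -6.75 without PGC-1α. For astrocyte markers, 3 of 5 were higher (0.291 to 0.346 and 0.506 to 0.656), with Slc1a3 and S100b above background on no array. For oligodendrocyte markers, 2 of 8 were higher and 1 lower, and the sums of the groups overlapped (1.66 to 1.87 and 1.75 to 2.02). For endothelial markers 1 of 2 was higher (0.0529 to 0.0691 and 0.071 to 0.0932), with Cdh5, Kdr and Tek above background on no array. The part of these differences in the results below was not tested. All samples are labelled as the BV2 line, so the marker signals were not read as numbers of other cell types. Bulk samples cannot separate numbers of cells from RNA per cell.

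Among the transcription factors, Tefm changed most. TEFM binds the mitochondrial RNA polymerase after initiation and lets it transcribe over long distances. Its single probe (NM_183275) read 0.01, 0.03 and -0.12 on the arrays without PGC-1α and -2.23, -1.96 and -2.33 on those with it. The groups were far apart and each was tight. The log2 fold change was -2.15 (SE 0.15, limma adjusted p = 7.9e-05), or a 4.43-fold decrease with a 95% confidence interval of 3.51 to 5.6. Only 1.47% of all tested probes had a lower log2 fold change. The difference was -2.11 on slide 1 (2 arrays against 2) and -2.22 on slide 2 (1 against 1), and -2.15 after quantile normalization. Under each of 19 other settings, every array left out in turn included, Tefm passed the threshold, with a log2 fold change between -2.26 and -1.88.

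Polrmt, the RNA polymerase that TEFM acts on and that also makes the primers for replication, was lower by much less. Its probe (NM_172551) read 0.17, 0.07 and -0.03 without and -0.34, -0.31 and -0.28 with PGC-1α, and the groups did not overlap. The log2 fold change was -0.38 (SE 0.13, limma adjusted p = 0.036), a 1.3-fold decrease, and -0.37 after quantile normalization (adjusted p = 0.034). The call was lost when any 1 of the 6 arrays was left out (log2 fold changes of -0.43 to -0.33, adjusted p up to 0.11). Within each array, the log2 ratio of Tefm to Polrmt was -0.15 to -0.04 without and -2.05 to -1.64 with PGC-1α. This ratio does not depend on the scaling by the 75th percentile, and it differed by -1.77 between the groups (two-sided exact permutation test, p = 0.1, the smallest p that 3 arrays against 3 allow).

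TFB2M, the initiation factor that opens the promoter for the polymerase, was measured by 2 probes of the same transcript (NM_008249) that gave different calls. The dimmer probe read -0.74, -0.58 and -0.41 without and -1.20, -1.66 and -1.02 with PGC-1α, a log2 fold change of -0.72 (SE 0.19, limma adjusted p = 0.016). The brighter probe read 0.40, 0.56 and 0.46 without and 0.39, -0.07 and 0.31 with PGC-1α, a log2 fold change of -0.26 (SE 0.16, limma adjusted p = 0.19). Neither probe had overlapping groups, although the closest arrays of the brighter probe read 0.40 and 0.39. The call of the dimmer probe was lost when replicate 3 without PGC-1α was left out (-0.63, limma adjusted p = 0.059). The 2 probes differed in their change by -0.45 within arrays (two-sided exact permutation test, p = 0.1, the smallest possible).

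Tfb1m encodes the related methyltransferase that modifies the small mitochondrial ribosomal RNA. Its probe (NM_146074) read -0.43, -0.91 and -0.46 without and -1.02, -0.90 and -0.70 with PGC-1α, and the groups overlapped. The log2 fold change was -0.27 (SE 0.17, 95% confidence interval -0.67 to 0.13, limma adjusted p = 0.22), so neither no change nor a 1.59-fold decrease lay outside the interval. The change of the brighter Tfb2m probe differed from that of Tfb1m by 0.01 within arrays (two-sided exact permutation test, p = 1.0).

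Lrpprc, whose product with SLIRP stabilizes mitochondrial messenger RNAs, was covered by 3 probes (NM_028233). The brightest read 2.50, 2.48 and 2.16 without and 2.68, 2.68 and 2.46 with PGC-1α, and the groups overlapped here as for the other probes. Its log2 fold change was 0.23 (SE 0.15, 95% confidence interval -0.12 to 0.58, limma adjusted p = 0.23) and turned to -0.10 after quantile normalization. The intervals of the other probes were -0.40 to 0.39 and -0.48 to 0.35.

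**Figure D2:**
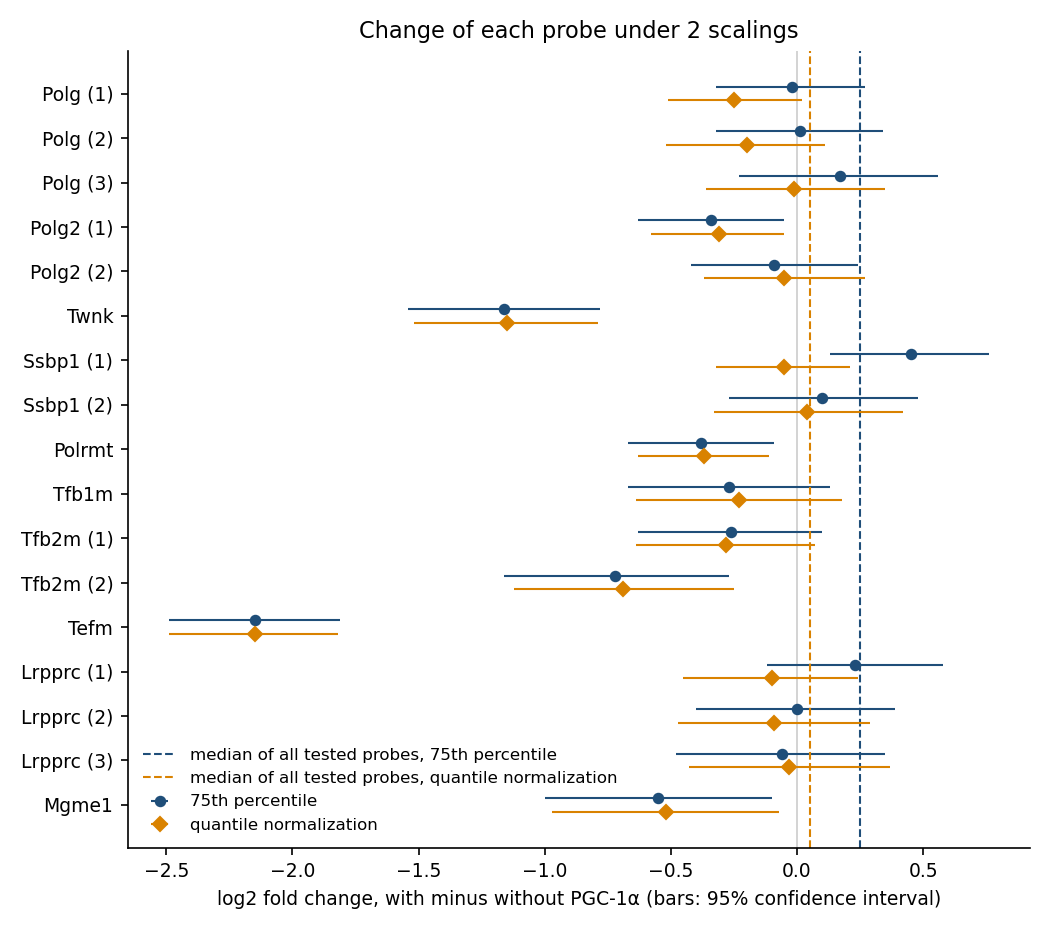
Log2 fold change of each of the 17 probes (with minus without PGC-1α, x axis) with its 95% confidence interval, under scaling to the 75th percentile (circles) and after quantile normalization (diamonds). Dashed lines mark the median of all 39297 tested probes, 0.25 and 0.05. Tefm and Twnk keep their place under both, while the brighter Ssbp1 probe moves from 0.45 to -0.05.

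In the replisome, Twnk stood apart from the polymerase. Its probe (NM_153796) read 0.07 and -0.08 on replicates 1 and 3 without PGC-1α and -1.32, -1.08 and -1.11 on the arrays with it, and the spot of replicate 2 without PGC-1α was left out as an outlier. The groups did not overlap, and the log2 fold change was -1.16 (SE 0.16, limma adjusted p = 0.0019, 2 arrays against 3), a 2.24-fold decrease with a 95% confidence interval of 1.72 to 2.92. The outlier spot read -0.50, still above every array with PGC-1α, and with such spots kept the log2 fold change was -1.0 (limma adjusted p = 0.0035). Twnk passed the threshold under all 16 other settings in which it could be tested, between -1.31 and -0.90. It could not be tested without replicate 1 or replicate 3 of the arrays without PGC-1α, or on slide 1 alone.

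Polg, which encodes the catalytic subunit of DNA polymerase gamma, was covered by 3 probes (NM_017462), all with overlapping groups. The brightest read 1.97, 1.90 and 1.95 without and 1.80, 1.93 and 2.01 with PGC-1α. Its log2 fold change was -0.02 (SE 0.13, 95% confidence interval -0.32 to 0.27, limma adjusted p = 0.88), and those of the other probes were 0.01 and 0.17. After quantile normalization the 3 values were -0.25, -0.20 and -0.01, and none passed. The log2 ratio of Twnk to the brightest Polg probe was -2.03 to -1.90 without and -3.13 to -3.01 with PGC-1α, a difference of -1.12 (two-sided exact permutation test, p = 0.2, the smallest p that 2 arrays against 3 allow).

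Polg2 encodes the accessory subunit that holds the polymerase on its template. The brighter of its probes (NM_015810) read -0.46, -0.27 and -0.41 without and -0.69, -0.71 and -0.75 with PGC-1α, and the groups did not overlap. The log2 fold change of -0.34 (SE 0.13) just missed the threshold with a limma adjusted p of 0.052, and passed it under 6 of 19 other settings. The dimmer probe read -0.64, -0.96 and -0.85 without and -0.82, -0.88 and -1.02 with PGC-1α, with overlapping groups and a log2 fold change of -0.09 (SE 0.14, limma adjusted p = 0.62).

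Ssbp1 encodes the protein that coats single-stranded mitochondrial DNA during replication. The brighter probe (NM_028358) read 3.31, 3.44 and 3.40 without and 3.80, 3.99 and 3.70 with PGC-1α, a log2 fold change of 0.45 (SE 0.14, limma adjusted p = 0.026), and was the only one of the 17 called higher. This direction depended on the scaling. The value was 0.20 above the median of all probes, and after quantile normalization it was -0.05 (limma adjusted p = 0.72). The call was also lost without replicate 1, 2 or 3 of the arrays without PGC-1α or without replicate 1 of those with it (limma adjusted p of 0.058 to 0.078). The dimmer probe (NM_001286663) gave a log2 fold change of 0.10 (SE 0.16, limma adjusted p = 0.61).

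Mgme1 encodes an exonuclease that trims the ends of newly replicated mitochondrial DNA. Its probe (NM_028984) read -0.33 and 0.08 on replicates 2 and 3 without PGC-1α and -0.81, -0.51 and -0.69 with it, with replicate 1 left out as an outlier spot. The groups did not overlap, but the distance between them was smaller than between the arrays without PGC-1α. The log2 fold change was -0.55 (SE 0.19, limma adjusted p = 0.045), and -0.52 after quantile normalization (adjusted p = 0.065). The call was lost without replicate 1 of the arrays without PGC-1α (-0.55, limma adjusted p = 0.056) and without replicate 1 (-0.48, adjusted p = 0.13) or 3 (-0.54, adjusted p = 0.086) of those with it. It could not be tested without replicate 2 or 3 of the arrays without PGC-1α or on slide 1 alone. With outlier spots kept, the lacking array read 0.04 and the log2 fold change was -0.60 (limma adjusted p = 0.016).

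Over the 17 probes, the groups did not overlap for 7 that were lower and 1 that was higher with PGC-1α. Over all tested probes, groups without overlap made up 21.9% as lower and 41.9% as higher.

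Promoters of 6 of the 10 genes held a sequence feature that the choice of genes had not used. In the RefSeq promoters of mouse GRCm38.p6, which span 250 bases before to 50 after each start, the letters CCGGAAG (either strand), a core of the sites bound by ETS factors such as GABP, occurred in 6 of the 11 promoters of the 10 genes, against 8.86% of all 32851 promoters of that length. The promoters compared belong to 27025 genes, and a set matched to the 10 genes in expression or base composition was not tested. The genes with the letters were Polg, Polg2, Twnk, Ssbp1, Polrmt and Tefm, and in Twnk the letters occurred in 1 of 2 promoters. The stretches that hold them are shown 5′ to 3′ on the strand of the gene, with CCGGAAG or its reverse complement in capitals. They are the 60 bases up to the start of Tefm (chr11:80142154-80142213, minus strand), Polrmt (chr10:79746582-79746641, minus), Polg (chr7:79466274-79466333, minus), Polg2 (chr11:106779538-106779597, minus) and Ssbp1 (chr6:40471408-40471467, plus), and for Twnk the stretch from 120 to 51 bases before the start (chr19:45006438-45006507, plus).
Tefm: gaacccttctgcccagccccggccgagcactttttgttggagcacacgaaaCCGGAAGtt
Polrmt: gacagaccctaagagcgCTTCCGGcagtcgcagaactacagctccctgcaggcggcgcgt
Twnk: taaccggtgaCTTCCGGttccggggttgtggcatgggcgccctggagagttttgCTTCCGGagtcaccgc
Polg: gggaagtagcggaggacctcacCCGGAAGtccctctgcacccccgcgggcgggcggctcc
Polg2: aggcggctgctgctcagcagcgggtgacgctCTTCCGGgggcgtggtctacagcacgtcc
Ssbp1: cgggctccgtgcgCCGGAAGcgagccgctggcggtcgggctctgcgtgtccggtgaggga

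The position of the letters differed between the genes, from 9 bases before the start in Tefm to 47 in Ssbp1, with Twnk holding them at 110 and 66. Of the 6 genes that held the letters, Tefm, Twnk and Polrmt were called lower (-2.15, -1.16 and -0.38). Polg (log2 fold changes of -0.02, 0.01 and 0.17) and Polg2 had no called probe. The brighter Ssbp1 probe was called higher (0.45, or -0.05 after quantile normalization). Without the letters, Mgme1 (-0.55) and the dimmer Tfb2m probe (-0.72) were called lower. The letters GCATGCG of the NRF1 core, searched on both strands and present in 3.58% of all promoters, occurred in Polrmt and Tfb2m, and the nuclear receptor half-site AAGGTCA, present in 4.72%, in Twnk alone of the 10 genes. Such matches describe the sequence in these windows and do not show binding.

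The starts of 4 of the genes lay within 2000 bases of the start of a gene on the opposite strand that is transcribed away from it. These neighbours were picked after values of the 10 genes were seen. Twnk starts 116 bases from Mrpl43, which encodes a protein of the large mitochondrial ribosomal subunit. Mrpl43 read 3.06 on average without and 3.25 with PGC-1α, a log2 fold change of 0.19 (SE 0.12, limma adjusted p = 0.21), beside -1.16 for Twnk. After quantile normalization the value for Mrpl43 turned to -0.25 (limma adjusted p = 0.093), beside -1.15 for Twnk. The log2 ratio of Twnk to Mrpl43 was -3.17 to -2.97 without and -4.57 to -4.28 with PGC-1α, so the members of this pair changed unequally, by -1.35 (two-sided exact permutation test, p = 0.2, the smallest possible with 5 arrays). Mgme1 starts 332 bases from Snx5, a sorting nexin, which gave 0.36 (SE 0.14, limma adjusted p = 0.055) beside -0.55, or 0.04 beside -0.52 after quantile normalization, and the change of the ratio was -0.85 with no overlap of the groups. Tfb2m starts 253 bases from Cnst, and the ratio changed by -0.61 for the dimmer Tfb2m probe and by -0.16, with overlapping groups, for the brighter one. Tfb1m starts 69 bases from 1700102H20Rik, with a change of the ratio of -0.44 and overlapping groups. None of the 4 neighbours passed the threshold under either scaling.

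**Figure D3:**
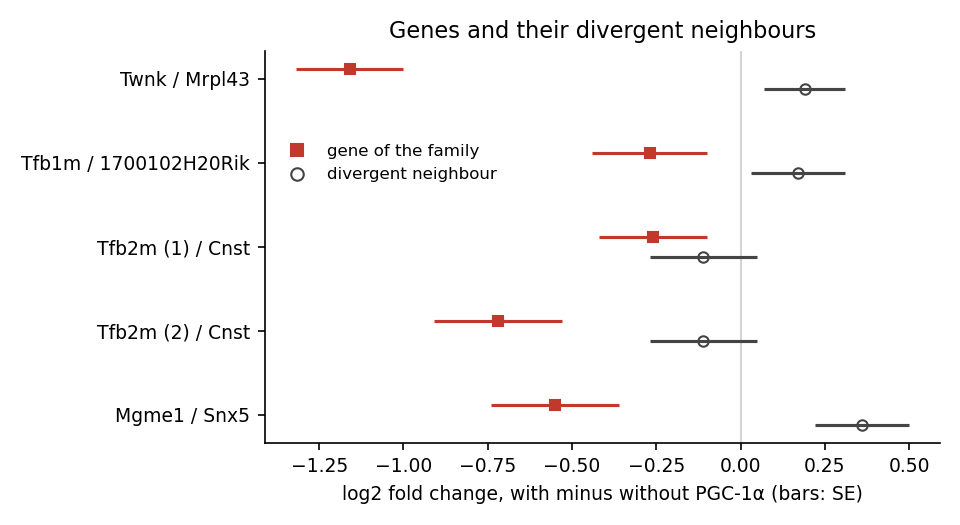
Log2 fold change (x axis, with minus without PGC-1α, bars are SE) of 4 genes (squares) and of the gene that starts nearby on the opposite strand (circles). Mrpl43 and Snx5 lie to the right of 0 (0.19 and 0.36) while Twnk and Mgme1 lie to the left (-1.16 and -0.55). The plot uses the 75th percentile scaling, and after quantile normalization Mrpl43 lay at -0.25 and Snx5 at 0.04.

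The other genes of the pathway were read from 4 related lists in the same fit. The clearest movement was in the list of further replication, packaging and repair factors, where 22 probes of 16 genes were tested. Of these, 10 probes of 7 genes fell and 3 probes of 2 genes rose, against 18.2% and 35.2% of all tested probes. The median log2 fold change was -0.44, against 0.25 for all probes. After quantile normalization the counts were 10 and 0. Tfam, the protein that packages mitochondrial DNA and bends its promoters for initiation, fell on both of its probes. They gave log2 fold changes of -0.58 (SE 0.13, limma adjusted p = 0.0086) and -0.52 (SE 0.13, adjusted p = 0.012), and -0.66 each after quantile normalization. Rnaseh1, which removes RNA primers, fell by 1.23 and by 0.76 on its probes, and Fen1, a flap endonuclease, fell by 1.35. Mterf1a and Mterf1b, mouse copies of the mitochondrial transcription termination factor, were 2.58-fold and 2.15-fold lower. Each of these probes had a limma adjusted p of 0.0038 or less. The Mterf1 copies are close paralogs, so their probes may not be separate measurements.

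RNA processing and decay factors moved in both directions, with 9 probes lower and 5 higher among 25 tested. Over all tested probes, 18.2% were lower and 35.2% higher, so the list held a larger share called lower. Its median was 0.25, that of all probes. Of the 5 higher, 1 passed after quantile normalization, while 9 were lower there too. Fastkd5, which is needed to process mitochondrial transcripts that lack flanking transfer RNAs, fell by 2.93 and by 2.11 on its 2 probes (SE 0.17 and 0.12, limma adjusted p = 4.7e-05 and 5.0e-05). Mrm2 and Mrm3, methyltransferases of the large mitochondrial ribosomal RNA, fell by 2.36 (SE 0.14, limma adjusted p = 4.7e-05) and by 1.31 (SE 0.15, adjusted p = 7.0e-04). Fastkd2, a further RNA-binding protein of the same family, fell by 1.48 (SE 0.13, limma adjusted p = 2.1e-04). Slirp, the partner of LRPPRC, rose by 0.51 (SE 0.15, limma adjusted p = 0.023), with 0.08 under quantile normalization. It was named after its value was seen, as was Fastkd1, whose 2 probes passed in opposite directions (-0.56 and 0.83).

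Nucleotide supply, the enzymes and carriers that provide the precursors of mitochondrial DNA, gave 4 probes called higher and none lower among 18, and 1 of each after quantile normalization. The 4 of 18 are a smaller share than the 35.2% of all tested probes called higher. Suclg2, a subunit of succinyl-CoA ligase, was higher on its 3 probes (0.47, 0.58 and 0.71), of which 1 passed after quantile normalization.

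Among nuclear regulators of mitochondrial genes, 9 of 24 tested probes were lower and 4 higher, against 18.2% and 35.2% of all tested probes, and the median was 0.03. Of the 9 lower probes, 2 are those of Tfam, which is also in the replication and packaging list. The relatives of PGC-1α fell, with log2 fold changes of -1.59 and -0.74 for Pprc1, the PGC-1-related coactivator (limma adjusted p = 0.001 and 0.0042), and of -0.86 and -0.72 for Ppargc1b, which encodes PGC-1β (adjusted p = 0.0079 and 0.046). Gabpb1, a subunit of GABP, was lower on 1 probe (-1.47, SE 0.14, limma adjusted p = 2.9e-04). Its other 3 tested probes gave 0.19, 0.31 and 0.31 and did not pass. Gabpa, a further subunit, was higher on its brightest probe (0.73, SE 0.13, limma adjusted p = 0.0032), with 0.69 under quantile normalization. Its other probes gave -0.36 and 0.49 and did not pass. Esrra, an estrogen-related receptor, was higher by 0.46 (limma adjusted p = 0.024), with 0.19 under quantile normalization. Nrf1 was lower on 1 probe (-0.53, SE 0.18, limma adjusted p = 0.035), with -0.52 under quantile normalization. Its other tested probe gave 0.32 and did not pass. Gabpa, Esrra and Nrf1 were named after their values were seen. Pparg, a nuclear receptor, was higher by 0.81 (SE 0.24, limma adjusted p = 0.023). No probe could be paired with the messenger RNAs of the mitochondrial genome, and their levels were not analysed here.

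**Figure D4:**
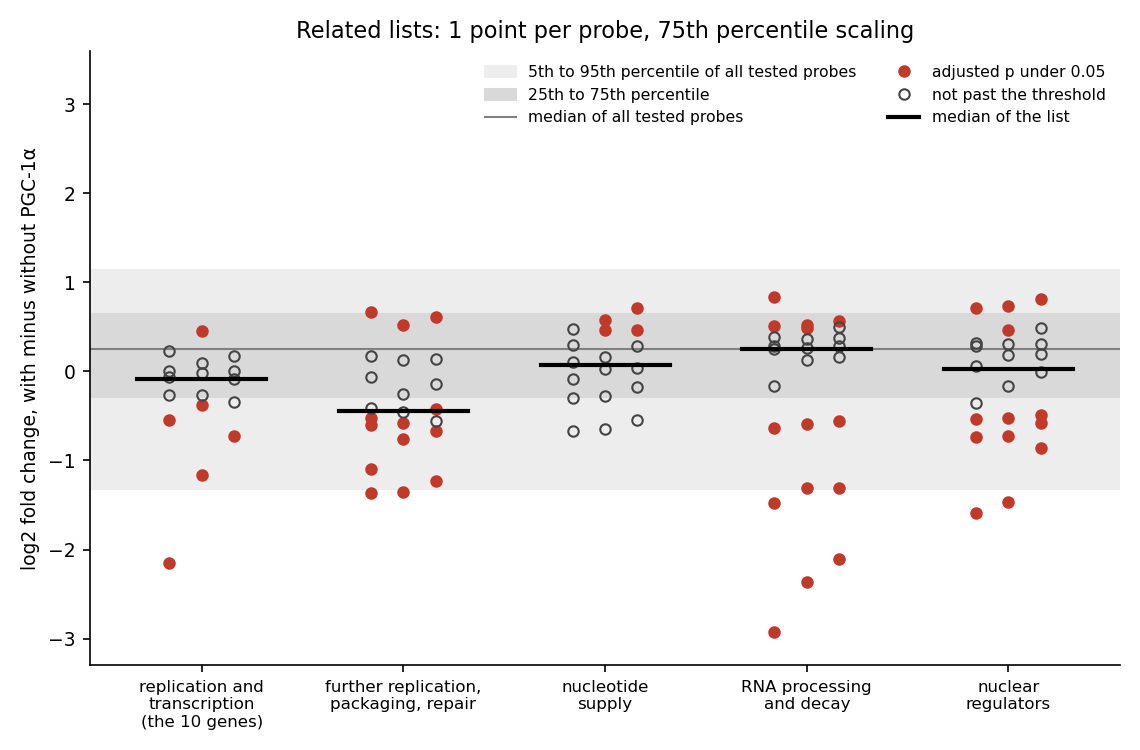
Log2 fold change of each tested probe (y axis, with minus without PGC-1α) in the 10 genes and the 4 related lists, scaled to the 75th percentile. Filled points passed an adjusted p of 0.05, black bars are list medians, and grey bands give the 5th to 95th (-1.32 to 1.14) and 25th to 75th percentiles (-0.29 to 0.65) of all tested probes. Tefm, at -2.15, lies below the outer band, as do Fastkd5, Mrm2 and Fastkd2 among the RNA processing factors, Mterf1a and Fen1 among the further replication factors, and Pprc1 and Gabpb1 among the regulators.

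**Figure D5:**
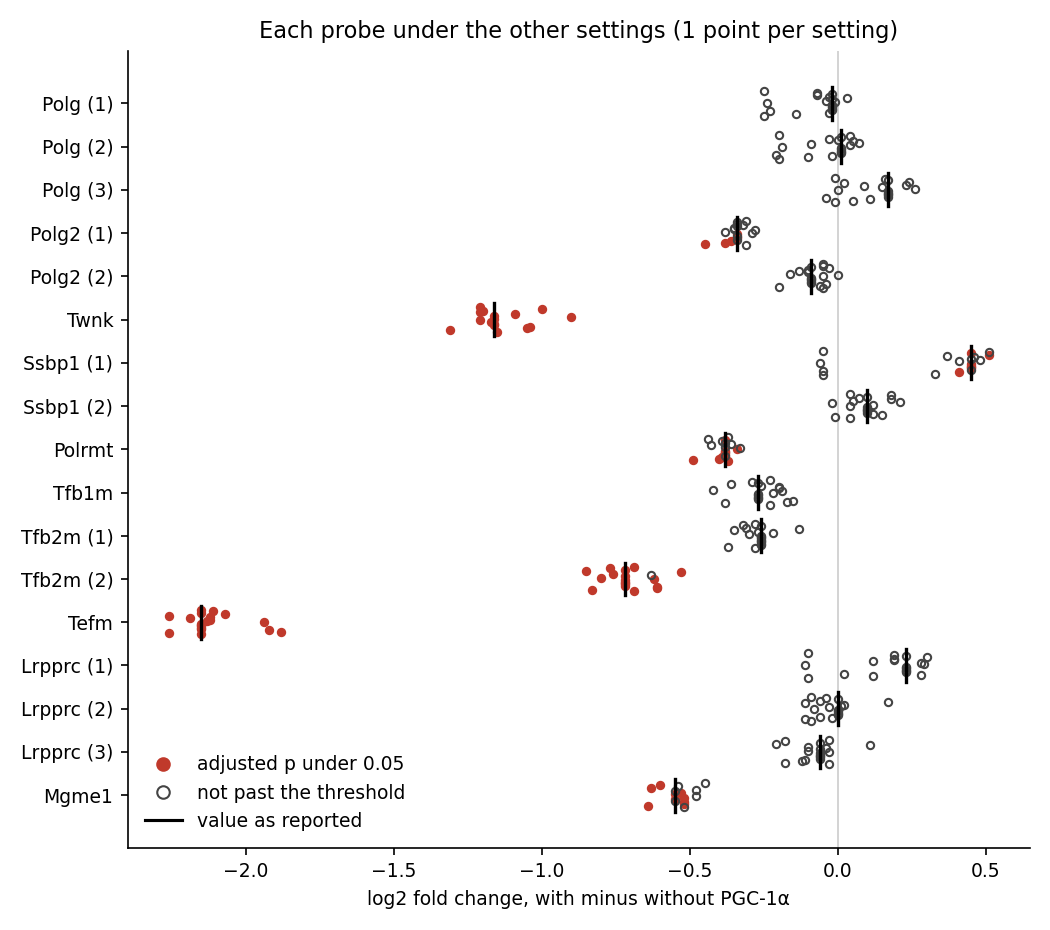
Log2 fold change (x axis) of each of the 17 probes under up to 19 other settings of normalization, filtering, model and arrays. Each point is 1 setting, filled where the adjusted p was under 0.05, and the black bar is the value as reported. Tefm and Twnk are filled throughout, Polrmt and Mgme1 in 10 of 19 and 9 of 16 settings.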

How the data were processed

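RNA of LPS-stimulated BV2 cells was hybridized to 6 Agilent arrays, 3 without and 3 with PGC-1α, on 2 slides, grouped by the sample labels. The authors deposited intensity values of the green channel from Agilent Feature Extraction 11.5.1.1, background-subtracted but not normalized between arrays, and a table of log2 values that the authors normalized in GeneSpring, used as an alternative. The dye is Cy3 in the labels and Cy5 in the methods.

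Each log2 intensity was set relative to the 75th percentile of the 59305 non-control spots of its array. Outlier spots (149 to 1590 per array) were left out, no spot was saturated, and spots of a probe were averaged. Accessions were matched to RefSeq genes for 33767 of 56605 probes. A probe was tested with values on at least 2 arrays per group and well above background on all 3 arrays of 1 group. Of the 39297 tested, 1981 lacked a value on some array. The test was limma 3.58.1 (lmFit, eBayes; R 4.3.3), run two-sided, and p-values were adjusted over all tested probes (Benjamini-Hochberg, threshold 0.05). Exact permutation tests used scipy 1.17.1. The steps were tested on simulated data. Precision is limited by the 6 arrays.

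The genes and lists were chosen with earlier results of these data known. From each related list, up to 4 genes past the threshold without overlap of the groups were named by largest change, plus Tfam. For 1 gene that this rule names, the result is not reported here. Alternatives were quantile normalization, the median of each array, normexp (offset 50, on median signals) with either scaling, other background filters, the slide or replicate number as a block, trend and robust variance, the authors' log2 values, 1 value per gene, and each array left out. Chosen after seeing the data were outlier spots kept, slide 1 only, and the replicate block with quantile normalization.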

Additional observations from a re-analysis of the deposited data

How the results depend on the processing

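The decreases of Tefm and Twnk kept their direction and stayed past the threshold under every alternative in which they could be tested. Of the 17 probes, 6 passed as reported, 3 without a filter on background, and 3 with the replicate block and quantile normalization. On slide 1 alone, 2 of the 15 probes that could be tested passed. With an array left out, 1 to 5 passed of the 15 to 17 that could be tested. The median of the 17 probes relative to all probes was -0.34 as reported and -0.45 without the filter. It was -0.53 and -0.51 with the brightest probe or the mean of the probes of each gene. Over the probes tested with an array left out, it was -0.51 to -0.26. Over the array, 21019 probes passed (13852 higher and 7167 lower), and 16943 after quantile normalization (8911 and 8032). With 1 value per gene, 9637 (brightest probe) and 9279 genes (mean) passed, because fewer features were tested, and 15584 to 21565 probes passed with an array left out.

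The values that changed direction were those of Ssbp1, Polg, Lrpprc and Ppargc1a probes. The brighter Ssbp1 probe, called at 0.45, gave -0.05 after quantile normalization, with normexp and quantile normalization and with the replicate block and quantile normalization, and -0.06 in the authors' values. The dimmer Ssbp1 probe gave -0.01 with the median of each array. The middle Polg probe gave -0.20 after quantile normalization, -0.10 with the median, -0.02 with normexp, -0.21 with normexp and quantile normalization, -0.19 in the authors' values and -0.20 with the block and quantile normalization. The dimmest Polg probe gave -0.01, -0.04, -0.00 and -0.01 after quantile normalization, with normexp and quantile normalization, in the authors' values and with the block and quantile normalization. The brightest Lrpprc probe gave -0.10, -0.11 and -0.10 after quantile normalization, in the authors' values and with the block and quantile normalization. The dimmer Ppargc1a probe gave -0.06 in the authors' values. With an array left out, the Polg probes ranged from -0.07 to 0.03, -0.09 to 0.07 and 0.02 to 0.26, the dimmer Ssbp1 probe from -0.02 to 0.21, and the Lrpprc probes from 0.12 to 0.30, -0.11 to 0.17 and -0.21 to 0.11. The cause of these changes was not tested.

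Arrays with the same replicate number deviated from their group means with correlations of -0.206, 0.00322 and 0.592. Number 3 marks the arrays on slide 2, so these values cannot decide whether the numbers pair the samples, and the labels do not say. With the replicate number as a block, 5 of the 17 probes passed (22817 over the array), Mgme1 being lost at -0.48 (limma adjusted p = 0.10). Signal over background limited both Ppargc1a probes and none of the 17.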
